A study of Mus with 21 samples.

Results

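The insulin-like growth factor (IGF) pathway was followed in embryonic mouse brain through 10 of its genes, *Igf1*, *Igf1r*, *Insr*, *Ghr*, *Irs1*, *Irs2*, *Igfbp2*, *Igfbp3*, *Igfbp4* and *Igfbp5*. They were taken by gene name from a table of 55335 genes, and all 10 were among the 30552 genes tested. The 21 libraries, in 4 genotype groups, were made from poly(A) RNA, each from 1 female embryo's whole brain at E17.5, shortly before birth. The 5 *WT* embryos carried normal alleles of both genes (*Wapl* +/+; *Nipbl* +/+ in the labels). The 3 *Nipbl*+/- embryos (*Nipbl* +/delta) had 1 loss-of-function allele of *Nipbl*, which encodes a protein that loads cohesin onto chromatin. The 7 *Wapl*Δ/+ embryos had 1 *Wapl* allele without its promoter and first exons, *Wapl* being the factor that releases cohesin from chromatin, and the 6 double heterozygotes carried both mutant alleles. The *Nipbl* deletion was made in the male germ line by a *Stra8-icre* transgene, so the mutant allele came from the sire, and the *Wapl* deletion came from an *E2a-Cre* cross followed by backcrossing to C57BL/6J. The study asked whether loss of 1 *Wapl* copy offsets the effects of losing 1 *Nipbl* copy, which include small body size.

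IGF1 and IGF2 are secreted growth factors that signal through the IGF1 receptor, a receptor tyrosine kinase close in structure to the insulin receptor. Active receptors phosphorylate the adaptor proteins IRS1 and IRS2, which pass the signal to PI3-kinase, AKT and mTOR, and a parallel branch runs through RAS and MAP kinases. Binding proteins (IGFBPs) hold IGFs outside the cell and limit or prolong their action, and the growth hormone receptor drives *Igf1* transcription, mainly in liver and after birth. In the brain, IGF signalling is known for its part in the growth and survival of neurons and glia, and loss of *Igf1* or *Igf1r* makes mice small.

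Total counts per library ranged from 25682566 to 35818767, with a median of 31830396. In *Nipbl*+/- brains *Nipbl* averaged 54.3% ± 4.52 (SD, n = 3) of *WT*, and *Wapl* averaged 46.7% ± 4.51 (SD, n = 7) of it in *Wapl*Δ/+ brains, and both were low in double heterozygotes, with no overlap with *WT* in any of these groups. Libraries also differed in *mt-Nd3*, a mitochondrial gene with 52 to 106 counts in 9 libraries (*WT* replicates 4 and 5, *Wapl*Δ/+ replicates 3 to 7, double-heterozygote replicates 5 and 6) and 0 to 6 in the other 12, all 3 *Nipbl*+/- libraries included. The labels write the mutant *Wapl* allele before or after the normal one, and this order matched the sets in 13 of 13 libraries with that allele. Values within the high and low *mt-Nd3* libraries are therefore given where they differ. All values below are normalized counts, which are raw counts scaled for library size and composition, and a gene was called when its adjusted p in edgeR's quasi-likelihood test was below 0.10. Normalized counts are not corrected for gene length, so levels are compared between groups and not between genes.

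Against *WT*, 3 of the 10 genes fell in *Nipbl*+/- brains, *Igf1*, *Igfbp5* and *Igfbp3*, and none rose. Of all genes tested, 11.2% were called in this comparison, and among genes averaging 100 or more normalized counts, which include all 10, the share was 20.5%. Genes called lower made up 6.96% of all genes. The same 3 genes lay below *WT* in every *Nipbl*+/- library, as did 6.90% of all genes. Of the 10 members, 1 was called in *Wapl*Δ/+ brains, *Igfbp4*, which was higher, where 2.22% of all genes were called and 0.769% were called higher, and 5 members had an unadjusted p below 0.05, as did 15.6% of all genes. Among genes averaging 100 or more normalized counts, 3.82% were called in *Wapl*Δ/+ brains. In double heterozygotes 1 of 10 was called, *Igfbp5*, which was lower. Beside it, 3.28% of all genes and 6.02% of those averaging 100 or more were called, and 2.46% of all genes were called lower. In that group 3 members had an unadjusted p below 0.05 (13.5% of all genes), and 1 of 10, *Igfbp5*, lay below *WT* in every library (2.29% of all genes). The median log2 fold change of the 10 genes was -0.09 in *Nipbl*+/- brains, 0.00 in *Wapl*Δ/+ brains and -0.04 in double heterozygotes, and over all genes tested it was -0.01, -0.00 and 0.00. The 3 comparisons share the 5 *WT* libraries, so they are not independent of each other. Shares by direction, by unadjusted p below 0.05 and by lack of overlap, here and below, cover all genes tested. They are not given for genes averaging 100 or more normalized counts, which were called more often than all genes in these comparisons.

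**Figure D1:**
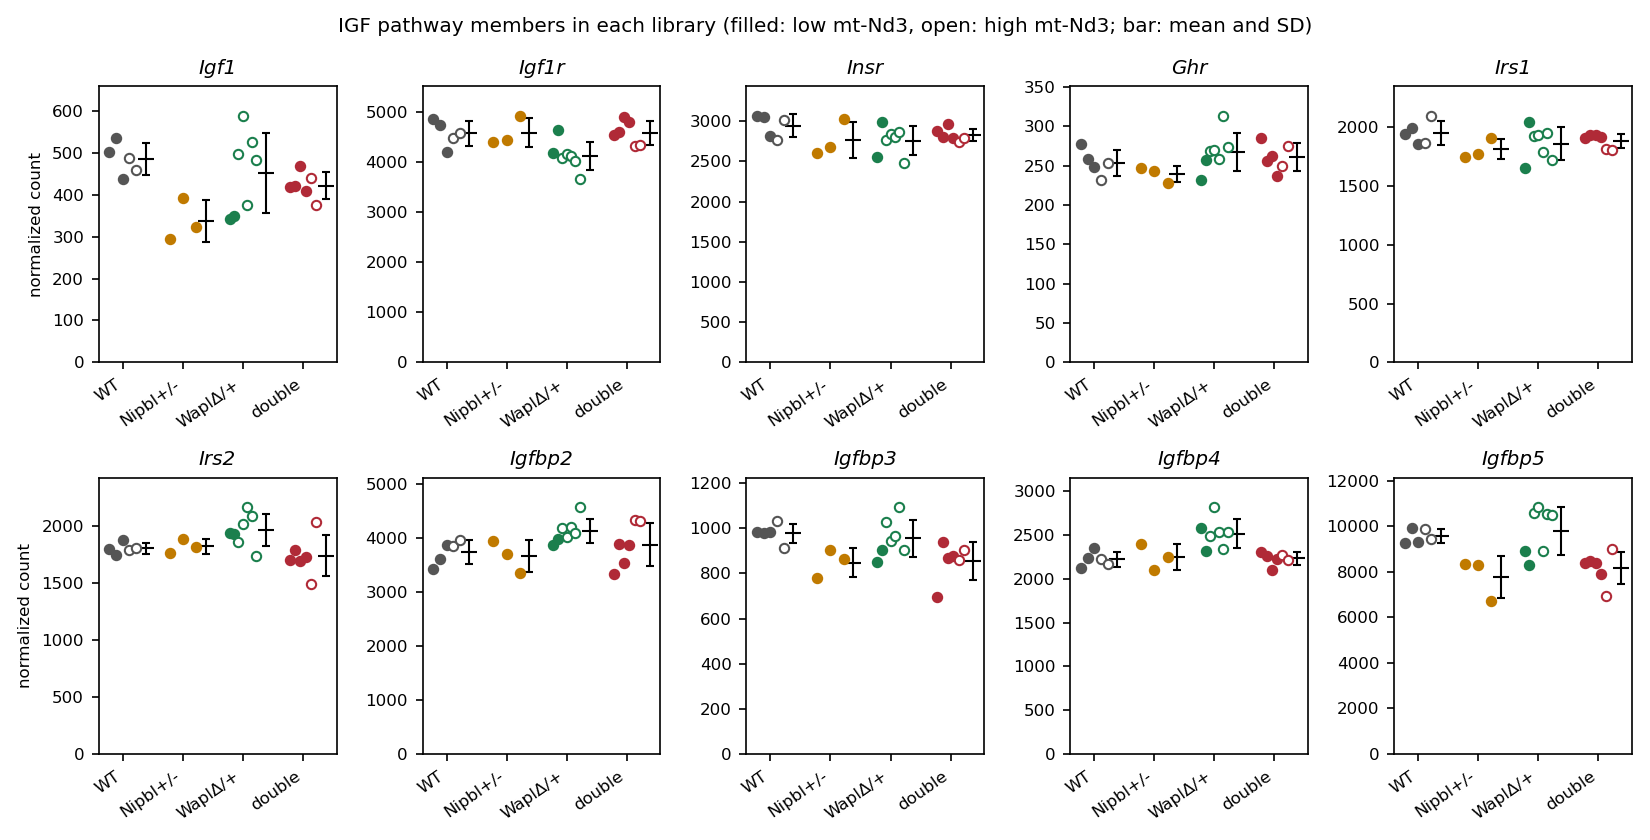
Normalized counts of the 10 IGF pathway genes (y axis, starting at 0) in each of 21 libraries by genotype (x axis), with replicates in order from left to right, filled points for low *mt-Nd3* libraries, open points for high ones, and a bar for the mean and SD of each group. *Igf1* lay between 295 and 393 in *Nipbl*+/- brains, below all *WT* libraries (438 to 535), while the *Igf1r* ranges of both groups overlapped (4389 to 4920 and 4202 to 4861).

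*Igf1* (chromosome 10, 87858265 to 87937047 in GRCm38) encodes the ligand whose receptor is IGF1R. Its normalized counts in *WT* replicates 1 to 5 were 502, 535, 438, 488 and 458, and in *Nipbl*+/- replicates 1 to 3 they were 295, 393 and 323. All *Nipbl*+/- brains thus lay below all *WT* brains, at 69.6% ± 10.4 (SD, n = 3) of the *WT* mean. The log2 fold change was -0.53 (standard error, SE, 0.0876, adjusted p = 0.00112 from edgeR's test). Among the low *mt-Nd3* libraries alone it was -0.55 (adjusted p = 0.0122 from edgeR), and leaving out any single library kept it between -0.66 and -0.44 and called.

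The 7 *Wapl*Δ/+ brains had *Igf1* counts from 343 to 588, with a median of 481, and showed the widest spread of any group, with a coefficient of variation of 21.3% against 7.81% in *WT*. Their mean was 93.2% ± 19.8 (SD, n = 7) of *WT* (log2 fold change -0.09, edgeR adjusted p = 0.742), and the ranges overlapped. The spread followed the *mt-Nd3* sets in part. The low *mt-Nd3* libraries, replicates 1 and 2, had 343 and 348, below the 3 *WT* libraries of that set (438 to 535), with a log2 fold change of -0.50 (SE 0.0954, adjusted p = 0.0963 by edgeR, called with 2 libraries against 3, where 0.154% of all genes were called). The 5 high *mt-Nd3* libraries ranged from 376 to 588 around the 2 *WT* libraries at 458 and 488, with a log2 fold change of 0.07 (edgeR adjusted p = 0.925). The low *mt-Nd3* *Wapl*Δ/+ values of *Igf1* lay inside the *Nipbl*+/- range, and the log2 difference between those groups was -0.03 (standard error 0.125, 2 libraries against 3). Whether the difference from *WT* itself differs between the sets was not tested.

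Double heterozygotes had *Igf1* counts from 374 to 468, with a median of 419, which overlapped *WT* at the upper end and *Nipbl*+/- at the lower end. Their mean was 87.1% ± 6.52 (SD, n = 6) of *WT*, and the log2 fold change of -0.19 (SE 0.0635, adjusted p = 0.163 by edgeR) was not called by edgeR and had an adjusted p of 0.0957 in DESeq2. It came to -0.19 in the low and -0.20 in the high *mt-Nd3* libraries. Compared directly, *Igf1* was 0.33 higher on the log2 scale in double heterozygotes than in *Nipbl*+/- brains (standard error 0.0937, unadjusted p = 0.00304, adjusted p = 0.971 from edgeR), and the difference was not called.

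*Igf1r* (chromosome 7, 67952257 to 68233668), the receptor for IGF1 and IGF2, had means of 4565 ± 253 (SD, n = 5) in *WT* and 4582 ± 294 (SD, n = 3) in *Nipbl*+/- brains, a log2 fold change of -0.00 with a standard error of 0.0475. The *Nipbl*+/- range of 4389 to 4920 overlapped the *WT* range of 4202 to 4861. *Igf1r* in *Wapl*Δ/+ brains ranged from 3665 to 4627 with a median of 4117, at 90.2% ± 6.2 (SD, n = 7) of *WT* (log2 fold change -0.14, SE 0.0441, adjusted p = 0.119 by edgeR). This difference was not called. It was called in 4 of 21 alternatives at the threshold of 0.10, and over all alternatives its log2 fold change ran from -0.17 to -0.06. DESeq2, another count test, was among the 4 (adjusted p = 0.0551), as was edgeR without *Wapl*Δ/+ replicate 2, the highest library (-0.17, adjusted p = 0.0146). Split by set, *Igf1r* means in *Wapl*Δ/+ and *WT* were 4399 (n = 2) and 4597 (n = 3) at low *mt-Nd3*. At high *mt-Nd3* they were 4006 (n = 5) and 4518 (n = 2). Whether the difference from *WT* depends on the set was not tested. Double heterozygotes stood at 100.3% ± 5.23 (SD, n = 6) of *WT*, with all 4 low *mt-Nd3* libraries (4529 to 4902) above both high ones (4314 and 4334).

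The insulin receptor gene *Insr* (chromosome 8, 3150922 to 3279649) was not called in any mutant group. Its means were 94.0% ± 7.60 (SD, n = 3) of *WT* in *Nipbl*+/-, 93.6% ± 6.09 (SD, n = 7) in *Wapl*Δ/+ and 96.1% ± 2.70 (SD, n = 6) in double-heterozygote brains, with log2 standard errors from 0.0374 to 0.0496. Without *Nipbl*+/- replicate 3, the highest of that group, *Insr* was called lower there (log2 fold change -0.15, edgeR adjusted p = 0.0723). That was 1 of 15 alternatives at the threshold of 0.10, and over all alternatives its log2 fold change ran from -0.15 to -0.05. *Ghr*, the growth hormone receptor gene (chromosome 15, 3317755 to 3583352), lies 4.71 Mb from *Nipbl* on the same chromosome. It had 228 to 247 counts in *Nipbl*+/- brains and 232 to 278 in *WT*, a log2 fold change of -0.09 (SE 0.0800, adjusted p = 0.595 by edgeR), and 105% ± 9.75 (SD, n = 7) and 103% ± 6.93 (SD, n = 6) of *WT* in *Wapl*Δ/+ and double-heterozygote brains. With all libraries in, edgeR thus called none of the 3 receptor genes in a comparison with *WT*.

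The receptor substrates *Irs1* (chromosome 1, 82233105 to 82291439) and *Irs2* (chromosome 8, 10984681 to 11008929) were not called either. In *Nipbl*+/- brains *Irs1* averaged 92.9% ± 4.39 (SD, n = 3) of *WT*, with counts of 1747, 1774 and 1906 against 1853 to 2095 in *WT* (log2 fold change -0.11, edgeR adjusted p = 0.175). The first 2 of those libraries lay under the *WT* range and the other within it. *Irs2* averaged 101% ± 3.47 (SD, n = 3) of the *WT* level in *Nipbl*+/-, 109% ± 7.87 (SD, n = 7) in *Wapl*Δ/+ brains (log2 fold change 0.12, edgeR adjusted p = 0.182) and 96.5% ± 9.79 (SD, n = 6) in double heterozygotes. In double heterozygotes the lowest and the highest *Irs2* counts were in the high *mt-Nd3* libraries, 1490 in replicate 5 and 2036 in replicate 6, and the other 4 had 1698 to 1793.

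**Figure D2:**
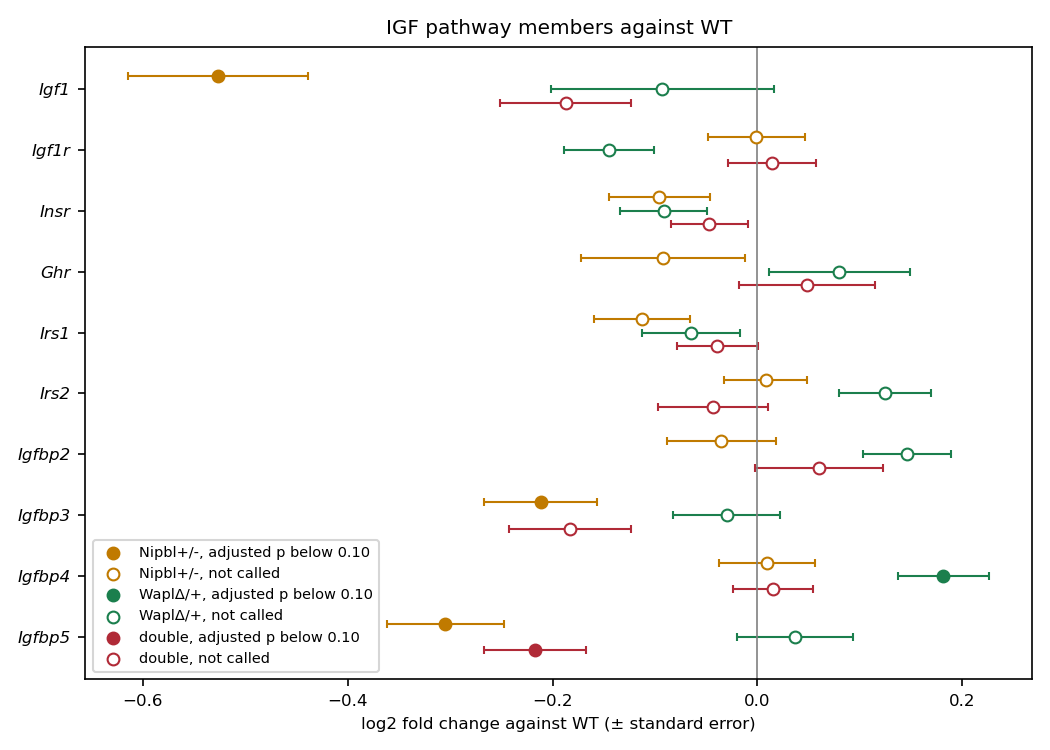
Log2 fold change against *WT* (x axis, with standard error) of the 10 IGF pathway genes (y axis) in *Nipbl*+/-, *Wapl*Δ/+ and double-heterozygote brains, with filled points for an edgeR adjusted p below 0.10. Filled points stand at *Igf1*, *Igfbp3* and *Igfbp5* in *Nipbl*+/- brains (-0.53, -0.21 and -0.30), *Igfbp4* in *Wapl*Δ/+ brains (0.18) and *Igfbp5* in double heterozygotes (-0.22).

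Of the 4 binding protein genes, *Igfbp5* and *Igfbp2* are neighbours on chromosome 1, with 5590 bp between them in GRCm38. *Igfbp5* (72858065 to 72874865) encodes an IGF-binding protein that is also bound by the extracellular matrix. Its counts in *WT* replicates 1 to 5 were 9275, 9919, 9292, 9864 and 9455, in *Nipbl*+/- replicates 1 to 3 they were 8321, 8294 and 6699, and in double heterozygotes they ran from 6933 to 8985 with a median of 8377. Neither mutant group overlapped *WT*. In the *Nipbl*+/- group *Igfbp5* fell to 81.3% ± 9.71 (SD, n = 3) of *WT* (log2 fold change -0.30, standard error 0.0571, adjusted p = 0.00265 from edgeR) and to 85.5% ± 7.32 (SD, n = 6) in double heterozygotes (-0.22, SE 0.0497, adjusted p = 0.0289 by edgeR). Double heterozygotes and *Nipbl*+/- brains differed from each other by 0.08 (SE 0.0790, adjusted p = 0.972 by edgeR).

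*Igfbp5* in *Wapl*Δ/+ brains ranged from 8285 to 10832 with a median of 10470, at 102% ± 10.9 (SD, n = 7) of *WT*, and was not called. Replicates 1, 2 and 5, at 8908, 8285 and 8910, lay below all *WT* libraries and the other 4, at 10470 to 10832, above them. The log2 fold change against *WT* was -0.14 in the low and 0.09 in the high *mt-Nd3* libraries, neither called. For *Igfbp5*, the call in double heterozygotes was lost when *WT* replicate 4 was left out (adjusted p = 0.101 from edgeR) and in one fit of all 4 groups (adjusted p = 0.154 from edgeR). Within the high *mt-Nd3* libraries (-0.26, 2 libraries against 2, adjusted p = 0.814 from edgeR) it was not called and within the low ones it was (-0.19, adjusted p = 0.0410 from edgeR), while the call in *Nipbl*+/- brains was kept whichever single library was left out (log2 fold change -0.36 to -0.20).

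*Igfbp2* (72824480 to 72852474), whose product is abundant in the fetal brain, was not called where its neighbour was. It averaged 98.0% ± 7.76 (SD, n = 3) of the *WT* level in *Nipbl*+/- and 104% ± 10.8 (SD, n = 6) in double heterozygotes, not called in either. *Wapl*Δ/+ libraries ranged from 3868 to 4572 against 3431 to 3955 in *WT*, a log2 fold change of 0.15 (SE 0.0430, adjusted p = 0.108 by edgeR) that was not called by edgeR and had an adjusted p of 0.05 in DESeq2. Among double heterozygotes the high *mt-Nd3* libraries had 4328 and 4318 and the low ones 3332 to 3883, with no overlap. Group-centred correlation of *Igfbp2* with *Igfbp5* over the 21 libraries was 0.17.

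*Igfbp3* (chromosome 11, 7206086 to 7215498) encodes the main IGF carrier of serum and lies 3539 bp from *Igfbp1*. The *WT* replicates had 983, 980, 982, 1031 and 914 counts, and the *Nipbl*+/- replicates had 777, 904 and 863, all below *WT*. *Igfbp3* fell to 86.7% ± 6.60 (SD, n = 3) of *WT* (log2 fold change -0.21, standard error 0.0554, adjusted p = 0.0236 from edgeR). For *Igfbp3* the call was lost without *Nipbl*+/- replicate 1, the lowest library, where the log2 fold change was -0.15 and the edgeR adjusted p 0.171, and in one fit of all 4 groups (edgeR adjusted p = 0.205). Double heterozygotes had 695 to 937 counts with a median of 873, at 87.6% ± 8.61 (SD, n = 6) of *WT*, a log2 fold change of -0.18 (standard error 0.0593) that was not called by edgeR (adjusted p = 0.139) and had an adjusted p of 0.0840 in DESeq2. *Wapl*Δ/+ brains ranged from 851 to 1093 and overlapped *WT* at both ends.

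*Igfbp4* (chromosome 11, 99040005 to 99052655), a binding protein gene whose product is cleaved by the protease PAPPA, was the member called in *Wapl*Δ/+ brains. *WT* replicates 1 to 5 had 2126, 2245, 2357, 2227 and 2174 counts, and *Wapl*Δ/+ brains had 2314 to 2821 with a median of 2534. The ranges overlapped between 2314 and 2357, where *Wapl*Δ/+ replicates 2 and 6 and *WT* replicate 3 lay. *Igfbp4* rose to 113% ± 7.58 (SD, n = 7) of *WT* (log2 fold change 0.18, standard error 0.0444, adjusted p = 0.0592 from edgeR). The call was lost without *WT* replicate 1, 2, 4 or 5 and without *Wapl*Δ/+ replicate 4 or 5 (edgeR adjusted p from 0.106 to 0.178). It was also lost in one fit of all 4 groups (0.164 by edgeR), with a term for the *mt-Nd3* set (0.113 by edgeR) and within either set alone. The call was kept in 11 of 21 alternatives at the threshold of 0.10, and the log2 fold change stayed between 0.13 and 0.21 under every alternative. *Igfbp4* averaged 101% ± 6.62 (SD, n = 3) of the *WT* level in *Nipbl*+/- and 100.4% ± 3.14 (SD, n = 6) in double heterozygotes, neither called.

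Set directly against *Wapl*Δ/+ brains, double heterozygotes had lower *Igfbp4* counts in every library, at 2106 to 2303 against 2314 to 2821, with a log2 fold change of -0.17 (SE 0.0438, adjusted p = 0.107 by edgeR). It was 1 of 10 members whose groups did not overlap, with the double heterozygotes lower, beside 0.717% of all genes. *Igfbp5* differed by -0.25 (edgeR adjusted p = 0.106) and *Igf1r* by 0.16 (edgeR adjusted p = 0.165). With edgeR 0 of 10 members were called between these groups, where 1.02% of all genes were called. An unadjusted p below 0.05 was found for 5 members and for 9.94% of all genes. DESeq2 called 3 members. Its share over all genes is not given here, so that count is no result about the members. Against *Nipbl*+/- brains, edgeR and DESeq2 called 0 of 10 in double heterozygotes, beside 0.00655% of all genes with edgeR, and 1 member, *Igf1*, had an unadjusted p below 0.05 (4.12% of all genes).

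Between the single heterozygotes, with *Nipbl*+/- set against *Wapl*Δ/+, edgeR called 0 of 10 members, beside 1.16% of all genes. An unadjusted p below 0.05 was found for 6 members (10.3% of all genes). DESeq2 called 1, *Igfbp5*, and its share over all genes is not given here, so that count is no result about the members. The *Igfbp5* difference was -0.33 (SE 0.0852, adjusted p = 0.102 by edgeR) and that of *Igf1* -0.42 (SE 0.153, adjusted p = 0.306 by edgeR). The interaction, the departure of double heterozygotes from the sum of both single effects on the log2 scale, was 0.40 for *Igf1* (standard error 0.167), -0.21 for *Igfbp4* (0.0719) and -0.21 for *Irs2* (0.0856). EdgeR called 0 of 30552 genes for it, and 3 members and 13.8% of all genes had an unadjusted p below 0.05; DESeq2 called 793 genes and 0 members, and gave no adjusted p for *Igf1* and *Ghr*. For *Igfbp5* the interaction was 0.01 (standard error 0.105).

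Within genotypes some pairs of members varied together and others in opposite directions. After the mean of each genotype was subtracted, Pearson's r between members over the 21 libraries ran from -0.69 to 0.83 over 45 pairs, with a median of 0.11 and 26 positive values. The highest values were among *Igf1r*, *Insr* and *Irs1*, with 0.83 for *Insr* and *Irs1*, 0.77 for *Igf1r* and *Insr*, and 0.61 for *Igf1r* and *Irs1*, while *Ghr* had -0.17 with *Igf1r*, 0.28 with *Insr* and 0.29 with *Irs1*. *Igf1* went most with *Igfbp5* (0.57), *Ghr* (0.46) and *Igfbp3* (0.41), and *Igfbp2* went against *Igf1r* (-0.69) and *Insr* (-0.57). All points share their libraries and their scaling, so these values are descriptions. Differences between the *mt-Nd3* sets were not subtracted. In every genotype with both sets, *Igf1r* averaged lower and *Igfbp2* higher in the high *mt-Nd3* libraries. In double heterozygotes *Igf1r* averaged 4705 in the low and 4324 in the high libraries, and *Igfbp2* 3655 and 4323. How far the sets account for these r values was not tested.

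**Figure D3:**
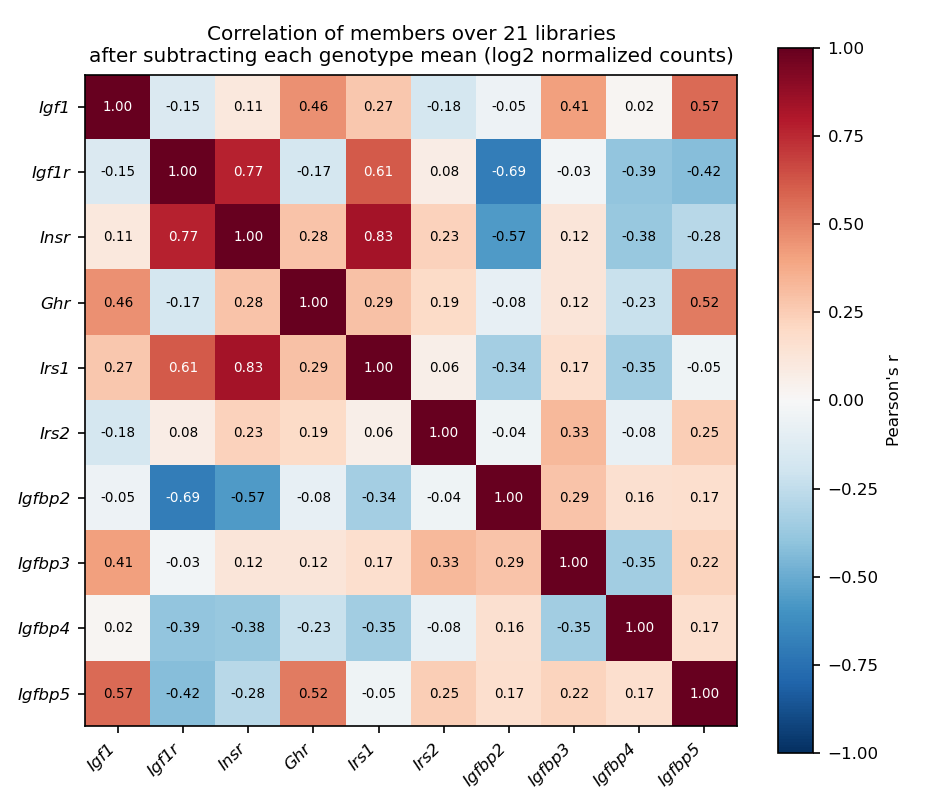
Pearson's r between each pair of the 10 IGF pathway genes (both axes) over 21 libraries, on log2 normalized counts after subtracting the mean of each genotype, with colour from -1 (blue) to 1 (red). *Igf1r*, *Insr* and *Irs1* share values from 0.61 to 0.83, and *Igf1* and *Igfbp5* have 0.57.

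Of the genes that averaged 100 or more normalized counts, those whose pattern over the 21 libraries was most like that of *Igf1* were *Gdf10* (r = 0.91), *Osbpl3* (0.86), *Slc26a7* (0.85), *Itgav* (0.84) and *Ccng1* (0.84), out of 14541 genes compared. *Gdf10* encodes a secreted factor of the TGF-beta family, and its r with *Igf1* stayed at 0.87 after the genotype means were subtracted. All 5 were called lower in *Nipbl*+/- brains, *Gdf10* with a log2 fold change of -0.40, *Osbpl3* with -0.41, *Slc26a7* with -0.50, *Itgav* with -0.47 and *Ccng1* with -0.22; since they were picked for likeness over libraries that include that contrast, this adds no evidence. The genes most like *Igfbp4* were *Bmper* (0.77), *Pfn1* (0.75), *Gja4* (0.75), *Armcx2* (0.75) and *Sdc1* (0.75).

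A further 73 genes of the pathway, of which 72 could be tested, gave the setting of the 10 members. In *Nipbl*+/- brains 17 of them were called (23.6%, beside 20.5% of genes averaging 100 or more), 8 higher and 9 lower. In *Wapl*Δ/+ brains 6 were called, 1 higher and 5 lower, and in double heterozygotes 6, of which 3 were higher and 3 lower, each 8.33% (beside 3.82% and 6.02% of the genes averaging 100 or more). The median log2 fold change of the 72 genes was -0.01, 0.02 and -0.00.

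**Figure D4:**
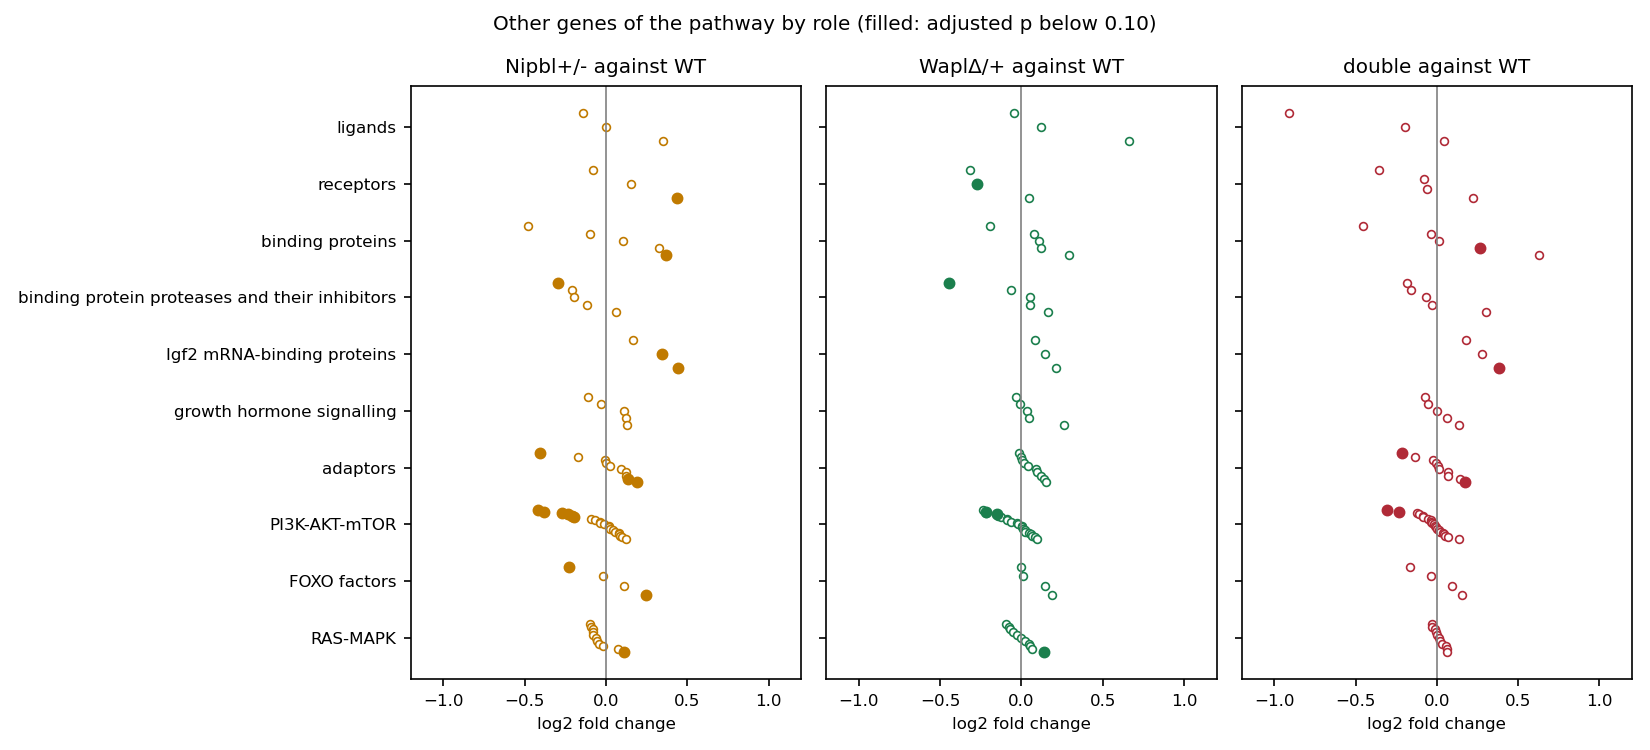
Log2 fold change against *WT* (x axis) of the other IGF pathway genes by role (y axis) in *Nipbl*+/-, *Wapl*Δ/+ and double-heterozygote brains, 1 point per gene, filled for an edgeR adjusted p below 0.10. In all 3 panels the filled points of the PI3K-AKT-mTOR group lie below 0, and those of the *Igf2* mRNA-binding proteins lie above 0 in *Nipbl*+/- and double-heterozygote brains; *Gh* in all 3 panels and *Ghrhr* in the first 2, both barely detected in most libraries, fall outside the axis.

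*Igf2*, the ligand gene that is most active before birth, was not called where *Igf1* was. Its mean was 100.2% ± 5.95 (SD, n = 3) of *WT* in *Nipbl*+/-, 109% ± 11.3 (SD, n = 7) in *Wapl*Δ/+ and 103% ± 8.88 (SD, n = 6) in double-heterozygote brains, called in none (log2 fold changes -0.00, 0.12 and 0.05, with standard errors from 0.0441 to 0.0565). *Igf2r*, the receptor that clears IGF2 from the cell surface, fell in *Wapl*Δ/+ brains to 82.6% ± 11.6 (SD, n = 7) of *WT*, with 2281 to 3327 counts (median 2426) against 2865 to 3290 in *WT* (log2 fold change -0.27, edgeR adjusted p = 0.0644). It was called in 6 of 12 fits that left out a library and not with a term for the *mt-Nd3* set (edgeR adjusted p = 0.118). The 5 high *mt-Nd3* libraries, at 2281 to 2670, lay below both *WT* libraries of that set (3038 and 3227), with a log2 fold change of -0.37 (edgeR adjusted p = 0.00523), and the low ones, at 2612 and 3327, gave -0.06. In double heterozygotes *Igf2r* had 2409 and 2543 in the high and 2947 to 3280 in the low *mt-Nd3* libraries, and the whole group was not called.

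*Igf2bp1*, *Igf2bp2*, *Igfbpl1* and *Insrr* rose in *Nipbl*+/- brains. Of the 3 genes for *Igf2* mRNA-binding proteins, which stabilize and transport transcripts, *Igf2bp2* (log2 fold change 0.44) and *Igf2bp1* (0.34) were called higher, and *Igf2bp3* at 0.17 was not. *Igf2bp2* was also called in double heterozygotes, at 130% ± 23.5 (SD, n = 6) of *WT*, where the call was lost without *WT* replicate 4 (edgeR adjusted p = 0.115). *Igfbpl1*, a binding protein-like gene, rose from 5501 ± 248 (SD, n = 5) in *WT* to 7130 ± 636 (SD, n = 3) with the *Nipbl* mutation alone and 6558 ± 582 (SD, n = 6) with both, with no overlap with *WT* in either group (edgeR adjusted p = 0.000213 and 0.0114). *Insrr*, a receptor of the insulin receptor family, was higher in *Nipbl*+/- brains by 0.43, at 142 to 164 counts against 101 to 126 in *WT*. *Htra1*, a protease that cleaves IGF-binding proteins, fell by 0.29 on the log2 scale in the same brains (adjusted p = 0.0226 by edgeR) and was not called without *Nipbl*+/- replicate 1 or 3 (edgeR adjusted p = 0.112 and 0.145).

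Inside the cell, 6 of 21 genes of the PI3K-AKT-mTOR branch fell in *Nipbl*+/- brains and 0 rose, 28.6% called beside 20.5% of all genes averaging 100 or more normalized counts. *Pik3r1*, the regulatory subunit p85 of PI3-kinase, had 4131 to 5066 counts against 5855 to 6284 in *WT*, at 75.2% ± 7.77 (SD, n = 3) of *WT* (log2 fold change -0.42, adjusted p = 0.000116 from edgeR). *Pdpk1* (-0.23) and *Gsk3b* (-0.21), which encode kinases, and *Phlpp2* (-0.27), which encodes a phosphatase that opposes the branch, were also among those that fell. Of 10 adaptor genes, *Irs4* fell by 0.41 on the log2 scale and *Sh2b2* (0.19) and *Ptpn1* (0.14) rose, and of the 4 FOXO genes *Foxo6* (0.25) rose and *Foxo1* (-0.23) fell. These groups hold few genes, and 3 of 10 and 2 of 4 called are read against the same 20.5%. The RAS-MAPK branch had 1 of 11 genes called, *Map2k2* (0.11). Of the 5 genes of growth hormone signalling, *Stat5b* at 0.12 and *Socs2* at -0.11 had an unadjusted p below 0.05 and were not called.

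*Pik3r1* was called lower in all 3 mutant groups. In *Wapl*Δ/+ brains it ranged from 4422 to 5697 with a median of 5253, below all *WT* libraries, at 85.8% ± 7.88 (SD, n = 7) of *WT* (log2 fold change -0.22, edgeR adjusted p = 0.0463), and in double heterozygotes from 4511 to 5337, at 80.3% ± 5.16 (SD, n = 6) (-0.31, adjusted p = 0.0011 from edgeR). The call of *Pik3r1* in *Wapl*Δ/+ brains was lost without *WT* replicate 1, 2 or 5 (edgeR adjusted p = 0.134, 0.143 and 0.111). *Mtor* (-0.15) and *Pappa2* (-0.44), a protease gene that acts on IGFBPs, were the other pathway genes with more than trace counts that were called lower in *Wapl*Δ/+ brains beside *Igf2r*, and *Map2k2* (0.14) was higher. Without *WT* replicate 1 or without *WT* replicate 2, edgeR called 0 of the 72 pathway genes in *Wapl*Δ/+ brains, and over all genes tested it then called 13 and 9 of 30552 (0.0426% and 0.0295%). In double heterozygotes *Irs4* (-0.21) was lower and *Grb10* (0.17), an adaptor that restrains receptor signalling, was higher; *Irs4* remained called in 3 of 11 fits that left out a library.

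*Gh*, the growth hormone gene, is made by the pituitary, which can be attached to a dissected brain. It had 2110 normalized counts in *WT* replicate 2, 820 and 201 in double-heterozygote replicates 6 and 5, and 0 to 22.3 in the other 18 libraries. EdgeR called *Gh* lower in *Wapl*Δ/+ brains (adjusted p = 0.0574), and the call was lost without *WT* replicate 2 (edgeR adjusted p = 0.627) and kept in 7 of 12 fits that left out a library. The summed counts of 7 pituitary markers, *Gh* among them, were 61.0 to 2825 in *WT*, 73.9 to 103 in *Nipbl*+/-, 72.7 to 118 in *Wapl*Δ/+ and 59.9 to 1277 in double heterozygotes.

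Markers of some cell types moved in the same comparisons as *Igf1* and the binding proteins. Of genes averaging 100 or more normalized counts, 20.5% were called in *Nipbl*+/-, 3.82% in *Wapl*Δ/+ and 6.02% in double-heterozygote brains. The marker lists hold few genes, and the counts below are read against these shares. In *Nipbl*+/- brains 4 of 6 astrocyte markers fell (*Aqp4*, *Aldh1l1*, *Slc1a3* and *Gja1*), with summed counts of 11753 to 14663 against 16052 to 17453 in *WT*, and 3 of 6 fell in double heterozygotes, with 12635 to 15701. Of 10 microglia markers 5 fell (among them *Cx3cr1*, *P2ry12*, *Csf1r* and *C1qb*) and *Sall1* rose, with sums of 4055 to 4689 against 4507 to 5154, and of 7 markers of border macrophages, which sit in the meninges and around vessels, 3 fell (*Cd163*, *Mrc1* and *Ms4a7*), with sums of 1261 to 1775 against 1799 to 2023. Among neurons' 7 markers *Snap25* and *Syt1* fell, at a summed 95.8% of *WT*. In double heterozygotes, where *Igfbp5* was lower, *Cx3cr1* fell among the microglia markers (sums of 4350 to 4790). *Cd163* fell among those of border macrophages (1533 to 1897) and *Syt1* among those of neurons. *Crabp2* rose among the meningeal fibroblast and *Otx2* among the choroid plexus markers, whose sums averaged 119% and 97.2% of *WT*. In *Wapl*Δ/+ brains, where *Igfbp4* was higher, 3 of 9 meningeal fibroblast markers rose (*Col1a1*, *Col1a2* and *Col3a1*), with sums of 19701 to 34099 against 18109 to 23166, and so did 1 of 7 endothelial (*Cdh5*) and 1 of 6 mural cell markers (*Pdgfrb*). Of the other lists in *Nipbl*+/- brains, *Sox2* and *Nes* rose and *Fabp7* fell among 7 progenitor markers. *Rgs5* and *Abcc9* fell among 6 mural cell markers, and *Cdh5* and *Slc2a1* rose among 7 endothelial markers. Among 9 meningeal fibroblast markers *Col3a1* rose and *Slc6a13* fell. *Otx2* rose among 7 choroid plexus markers, but 4 of the 7 had negative log2 fold changes, and their sum averaged 90.8% of *WT*. *Hbb-y* rose among 6 blood markers, but 5 of the 6 had negative log2 fold changes, and their sum averaged 84.9% of *WT*. Both sums overlapped those of *WT*. In whole-brain RNA fewer cells of a type and less RNA per cell cannot be told apart, and the part of these cell types in the changes of *Igf1*, *Igfbp3*, *Igfbp4* and *Igfbp5* was not tested.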

How the data were processed

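The deposited table holds raw counts per gene for 21 libraries, 1 per embryo. Per the labels and the study's methods, the authors trimmed paired-end reads with cutadapt 2.4, aligned them with STAR 2.5.3a to mm10 (GRCm38.p6) and counted them with featureCounts of Subread 1.6.4. The strand setting is not given in the sources used here, and *Igf1* and *Irs2* overlap antisense or neighbouring genes (*Igf1os*, *9530052E02Rik*). The authors left out a further *Nipbl*+/- library, which was not analysed here. Tests covered genes whose normalized counts, summed over the 21 libraries, reached 10. Every comparison was fitted to its own libraries with TMM scaling and edgeR 4.0.16's quasi-likelihood test (R 4.3.3, limma 3.58.1), and p-values were adjusted by Benjamini-Hochberg over all genes tested. The study's own tool, DESeq2 (1.42.0), was an alternative. Normalized counts are counts divided by TMM-scaled library size. The script was tested on simulated data. Figures were drawn with matplotlib 3.10.9. Named pathway genes were mainly those called with the largest changes against *WT*, with *Igf2*, *Igf2r* and *Gh* named whatever their values. Others, some of them not called, were named to describe their group of the pathway. Likeness was Pearson's r over 21 libraries. Members and gene lists were chosen with earlier results of these data known. Nothing in the labels says more of replicates than that they are separate samples, and counting error is only part of their spread. Gene and protein sequences were not used here. Some genes of these lists are not reported here by name.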

Additional observations from a re-analysis of the deposited data

Results flagged for a closer look

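Of 39 groups of 5 to 7 libraries checked for a single library far from the rest by Dixon's test, 5 had one. Chance gives about 1 in 20 for normally distributed values. *Gh*, at 0 in most libraries, is not so distributed, so its flags are not read against that rate. Double-heterozygote replicate 1 had 695 normalized counts of *Igfbp3*, and the nearest library of its group had 858. *Wapl*Δ/+ replicate 2 had 3330 of *Igf2r*, and the nearest had 2670. *Gh* stood apart in 3 groups, with 2110 normalized counts in *WT* replicate 2 (the nearest had 1.96), 17.2 in *Wapl*Δ/+ replicate 1 (the nearest had 0) and 820 in double-heterozygote replicate 6 (the nearest had 201).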

How the results depend on the processing

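Of 1450 values recomputed for the 10 members, 1310 kept their direction and side of the threshold, 16 lost a call, 49 gained one and 75 changed sign, none of them called. *Igf1* and *Igfbp5* in *Nipbl*+/- brains were called in 15 of 15 alternatives at the threshold of 0.10, *Igfbp3* there in 13 of 15, *Igfbp5* in double heterozygotes in 17 of 20 and *Igfbp4* in *Wapl*Δ/+ brains in 11 of 21. Causes were not tested. None of the 3 *Nipbl*+/- libraries was in the high *mt-Nd3* set, so that set could not be fitted for them. A set term could be fitted against groups with libraries in both sets, such as *WT*. It was not used in the pairwise comparisons of *Nipbl*+/- brains.

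The main fits did not pair samples by replicate number. Deviations of same-numbered libraries correlated above 0.1 in 0 of 3 pairs for *Nipbl*+/- and *WT*, 2 of 5 for *Wapl*Δ/+ and *WT* and 0 of 5 for double heterozygotes and *WT*. Between mutant groups they did so in 2 of 3 for double heterozygotes and *Nipbl*+/-, 3 of 6 for double heterozygotes and *Wapl*Δ/+ and 1 of 3 for the single heterozygotes. In these 3 comparisons the replicate 1 libraries were each other's closest match (r = 0.36, 0.34 and 0.44). Replicate 5 was so for *Wapl*Δ/+ and *WT* (0.15). Whether some same-numbered libraries share an origin was not tested. With the replicate number as a block, the members called became 3 and the other pathway genes 17 in *Wapl*Δ/+ brains, the other pathway genes 3 in double heterozygotes against *WT*, and the members 1 in double heterozygotes against *Wapl*Δ/+. Under this block the sign changed for *Igfbp2* (0.0058), *Igfbp4* (-0.0011) and *Igf2* (0.028) in *Nipbl*+/- against *WT*, *Igfbp5* in *Wapl*Δ/+ (-0.011), *Igfbp2* (-0.032) and *Igfbp3* (-0.028) in double heterozygotes against *Nipbl*+/-, *Insr* between the single heterozygotes (-0.00087) and *Igfbp3* in the interaction (-0.00069).

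Counts of calls moved by over 1.5 times as follows. In *Nipbl*+/- brains, one fit of all 4 groups called 9 other pathway genes. In *Wapl*Δ/+ brains, DESeq2 called 3 members and 12 other pathway genes, no filter 3 and 10, the threshold 0.05 0 and 1, all 4 groups in one fit 0 and 0, the *mt-Nd3* set term 0 and 1, the high *mt-Nd3* libraries 0 and 3, and the low ones 0 other pathway genes. In double heterozygotes against *WT*, DESeq2 called 3 members, no filter 2, all 4 groups in one fit 0 members and 3 other pathway genes, and the high *mt-Nd3* libraries 0 of both. In double heterozygotes against *Wapl*Δ/+, DESeq2 called 3 members, its size factors 2, no filter 1, a CPM filter 2 and one fit of all groups 3. Between the single heterozygotes, DESeq2, no filter and one fit of all groups each called 1. Leaving out a library gave 2 to 4 members and 12 to 27 other pathway genes in *Nipbl*+/-, 0 to 3 and 0 to 11 in *Wapl*Δ/+ and 0 to 3 and 3 to 13 in double-heterozygote brains, 0 to 3 members against *Wapl*Δ/+, 0 to 1 between the single heterozygotes and 0 to 1 in the interaction. These fits called 1828 to 4788 of 30552 genes in *Nipbl*+/-, 9 to 1534 in *Wapl*Δ/+ and 454 to 2504 in double-heterozygote brains. They called 163 to 449 against *Wapl*Δ/+, 69 to 600 between the single heterozygotes and 0 to 945 in the interaction. Calls over all genes under the other alternatives and the replicate block are not given here, so those counts are no result about these genes.

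Signs also changed, at log2 values near 0 for most genes, for *Igf1r* in *Nipbl*+/- brains with DESeq2 (0.0084), its size factors (0.0084), no filter (0.0087), a CPM filter (0.0067) and all 4 groups (0.029), and for *Igf2* there (0.0067, 0.0067, 0.0075, 0.0046 and 0.027). *Igf1r* in double heterozygotes against *Nipbl*+/- became -0.0012 with no filter and -0.010 with all 4 groups. In the low *mt-Nd3* libraries the values were *Igfbp2* 0.0066, *Igfbp4* -0.0010 and *Igf2* 0.028 in *Nipbl*+/- brains, *Ghr* -0.095, *Igfbp5* -0.14 and *Igf2* -0.013 in *Wapl*Δ/+ brains, *Irs1* 0.0037, *Igfbp4* -0.0011 and *Igf2r* 0.032 in double heterozygotes, *Igfbp2* -0.0082 and *Igfbp3* -0.0087 in those against *Nipbl*+/-, *Igf1* 0.31 and *Ghr* 0.092 in those against *Wapl*Δ/+, and *Insr* -0.0013 between the single heterozygotes. In the high ones they were *Igf1* 0.068 and *Igfbp3* 0.021 in *Wapl*Δ/+ brains, *Igf1r* -0.046, *Igf2* -0.071 and *Gh* 12.01 in double heterozygotes, and *Irs1* -0.040 and *Igfbp2* 0.039 in those against *Wapl*Δ/+. With the set term they were *Igfbp5* -0.015 in *Wapl*Δ/+ brains and *Igf1* 0.0060 and *Ghr* 0.0072 in double heterozygotes against *Wapl*Δ/+.

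Leaving out a library spanned 0 in *Nipbl*+/- brains for *Igf1r* (-0.043 to 0.031), *Irs2* (-0.021 to 0.034), *Igfbp2* (-0.086 to 0.036), *Igfbp4* (-0.037 to 0.053), *Igf2* (-0.046 to 0.049) and *Gh* (-11.7 to 3.59), in *Wapl*Δ/+ brains for *Gh* (-11.7 to 2.09), and in double heterozygotes for *Igf1r* (-0.013 to 0.034), *Igfbp4* (-0.0044 to 0.039) and *Gh* (-3.28 to 8.14). It did so in double heterozygotes against *Nipbl*+/- for *Igf1r* (-0.030 to 0.053), *Insr* (-0.0080 to 0.10), *Igfbp3* (-0.045 to 0.070), *Igfbp4* (-0.048 to 0.039) and *Igfbp5* (-0.024 to 0.13), against *Wapl*Δ/+ for *Ghr* (-0.065 to 0.012) and *Irs1* (-0.0021 to 0.048), between the single heterozygotes for *Insr* (-0.054 to 0.046), and in the interaction for *Ghr* (-0.0071 to 0.070), *Igfbp3* (-0.035 to 0.11) and *Igfbp5* (-0.059 to 0.098).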
